A study of Mus musculus with 2 samples.

Results

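DNase-seq, which maps the stretches of chromatin open enough for DNase I to cut, was applied to the hindbrain of mouse embryos of strain B6NCrl at embryonic day 14.5, males and females pooled and healthy. There was 1 group of 2 biological replicates with no other tissue, age, genotype or treatment, and the labels give both replicates the same donor entry. Described here are the strong distal peaks found only in replicate 1. They were selected on the deposited replicate 1 score, which had to be 64 or more, and on absence from replicate 2, where no peak and no hotspot, the wider region of enriched cutting, could overlap them by as much as 1 bp. Their midpoints also lay more than 1 kb from every transcription start site (TSS) of the basic GENCODE M21 set. The rule kept 6059 of the 263679 peaks of replicate 1 on the assembled chromosomes, each 150 bp wide. Because the replicate contrast chose these sites, their absence from replicate 2 is a description and was not tested.

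Distal open sites are mostly enhancers, silencers and sites of the architectural protein CTCF. Enhancers tend to be open in few cell types, and in the nervous system many carry binding sequences of homeodomain, POU and basic helix-loop-helix (bHLH) factors. CTCF sites, which anchor chromatin loops, tend to be open in most cell types. The hindbrain gives rise to the cerebellum, pons and medulla, and holds progenitors next to differentiating neurons, glia, vessels and meninges, so a bulk library averages over many cell types.

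The replicate 1-only sites were spread over many genes. The strongest lay near Slc32a1, Pax3, Dnaic1, Hes5 and Slit1, the longest run of them lay in introns of Gse1, and 40.3% of the strong distal peaks around the Hox clusters belonged to the set. They rarely held the CTCF consensus. Of 52949 strong distal peaks in replicate 1, 45663 overlapped a replicate 2 peak, 1227 overlapped a replicate 2 hotspot alone, and 6059 (11.4%) overlapped neither. That 11.4% is the background for each share of strong distal peaks found only in replicate 1 given below. The same rule with the replicates exchanged, and with a replicate 2 score minimum of 41 that kept a like part of its distal peaks (24.6% against 24.3%), found 18 of 26822 peaks (0.0671%). Replicate 2 held fewer peaks, 148804 in all, and read depth is unknown because the files hold no counts. In bulk tissue, fewer cells with an open site and weaker opening in each cell cannot be told apart, and with unknown depth neither can be told apart from lower detection.

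The sequences of 3 sites introduce the set, chosen after their values were seen because the loci recur below. All are given from GRCm38, the mm10 assembly, with any match to the homeodomain core TAATTA, the POU octamer ATGCNAAT, the HOX-PBX sequence TGATTNAT, the AP-1 sequence TGANTCA or the E-boxes CAGCTG and CAGATG and CATATG in capitals.
Slc32a1 site, chr2:158616436-158616585, forward strand: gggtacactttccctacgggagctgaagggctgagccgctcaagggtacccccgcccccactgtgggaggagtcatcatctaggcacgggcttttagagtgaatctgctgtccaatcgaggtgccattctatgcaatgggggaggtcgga
Pax3 site, chr1:78217336-78217485, forward strand: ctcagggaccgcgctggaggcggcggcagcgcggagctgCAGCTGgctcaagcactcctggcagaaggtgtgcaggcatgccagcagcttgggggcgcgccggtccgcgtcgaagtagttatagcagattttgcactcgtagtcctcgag
Hoxb4 site, chr11:96319236-96319385, forward strand: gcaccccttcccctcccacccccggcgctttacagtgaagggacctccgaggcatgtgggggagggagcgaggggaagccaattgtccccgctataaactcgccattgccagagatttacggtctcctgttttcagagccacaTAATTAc
The Slc32a1 site held no match, the Pax3 site held 1 CAGCTG E-box and the Hoxb4 site held 1 TAATTA homeodomain core near its end.

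The site with the highest score, 112, was intergenic and lay 5744 bp downstream of the start of Slc32a1, which encodes the vesicular transporter that loads GABA and glycine. The nearest replicate 2 peak was 2800 bp away and scored 74. The Slc32a1 promoter itself was open in both libraries, with top scores of 101 and 51. A further 4 sites scored 108. One lay 20277 bp upstream of Pax3, a homeodomain factor of the dorsal neural tube, where the nearest replicate 2 peak was 1440 bp away and scored 49. GENCODE places it between genes, but RefSeq puts it 859 bp from the start of the predicted gene Gm2102, so by RefSeq it is a promoter site. Another lay 8112 bp upstream of Hes5, a Notch target that keeps progenitors undifferentiated, with a replicate 2 peak of score 59 at 4340 bp. The intronic site 45881 bp into Slit1, which encodes an axon repellent, had a replicate 2 peak of score 48 at 3600 bp. The last of the 4 lay in an intron of Dnaic1, an axonemal dynein gene of motile cilia, 1757 bp upstream of the nearest Dnaic1 start, and its nearest replicate 2 peak scored 30 at 2980 bp.

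The other sites among the 10 strongest were nearest to Peli2 and Dtx4 (score 107 each), and to Asic4, Ier5 and Rhbg (103 each). Dtx4 encodes a Deltex ubiquitin ligase of the Notch pathway and Asic4 a member of the acid-sensing ion channel family. All 10 lay in replicate 1 hotspots at the largest deposited −log10 q-value, 100, and the nearest replicate 2 peak was between 380 bp (Asic4) and 10060 bp (Peli2) away. For 9 of the 10 genes both libraries had a promoter peak. Rhbg, an ammonium transporter gene, was the exception, with a promoter peak of score 25 in replicate 2 alone. The Asic4 site lay 871 bp from a RefSeq start of the predicted gene Gm32506.

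Most of the set sat close to the score minimum. Scores ran from 64 to 112 with a median of 69 and quartiles of 66 and 74, against a median of 83 and quartiles of 73 and 97 for the strong distal peaks that overlapped a replicate 2 peak, called shared from here on. Of the strong distal peaks with scores of 64 to 69, 3139 of 10740 were found only in replicate 1 (29.2%, Wilson 95% interval 28.4% to 30.1%). The share was 15.7% at 70 to 79, 5.18% at 80 to 89 and 1.58% at 90 to 99, with 23 sites from 100 up and short of 110, and 1 above. At the edge of the rule, 654 sites had a score of exactly 64, and 690 peaks with a score of 63 met every other condition. Up to 100 bp beyond the 1 kb TSS limit lay 48 sites, and up to 100 bp short of it lay 54 peaks that failed the distance rule alone. A replicate 2 peak or hotspot came within 500 bp of 1261 sites without touching them. Wilson intervals here and below cover counting error only, and neighbouring peaks are not independent.

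**Figure D1:**
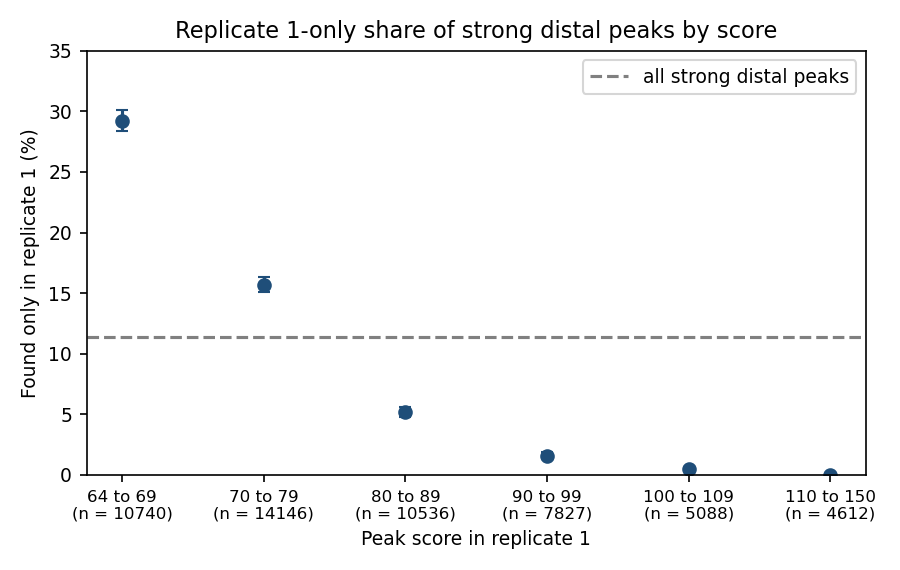
Share of replicate 1 strong distal peaks found only in replicate 1 (y axis, percent) by replicate 1 score (x axis, with the number of peaks), with 95% Wilson intervals; the dashed line is the 11.4% of all of them. The share falls from 29.2% at scores of 64 to 69 to 0.0217% at 110 and above.

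Because score and membership are tied, shares were also compared with the number that the genome-wide rate at the same scores would give, and sequence features were compared within scores of 64 to 70, where 3493 sites and 8569 shared peaks remained. Both comparisons were added after the data were seen.

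The sites lay in introns more often than shared peaks did. Of the 6059 sites, 3593 were intronic (59.3%, 58.1% to 60.5%), 253 exonic (4.18%) and 2213 intergenic (36.5%), whereas 50.6% of shared peaks were intronic and 44.0% intergenic. At scores of 64 to 70 the intronic shares were 58.1% and 51.8%. The median distance to a TSS was 19374 bp, against 15892 bp for shared peaks and 19960 bp for all distal peaks of replicate 1. RefSeq, which holds more predicted transcripts, put 324 sites (5.35%) within 1 kb of a start, 62 of them a curated one, against 6.61% of all strong distal peaks. On each assembled chromosome except Y, which had 0 sites among 11 strong distal peaks, between 8.79% (chromosome 17) and 14.1% (chromosome 8) of the strong distal peaks were found only in replicate 1.

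All but 1 of the sites lay inside a replicate 1 hotspot, but those hotspots were narrower and less often at the q-value cap. Their median width was 367 bp, against 468 bp for shared peaks, and 65.3% stood at the cap, against 94.2%. Within scores of 64 to 70 the widths were closer, 347 and 373 bp, and the shares at the cap were 59.6% and 83.2%. Other open sites were usually near in replicate 2. The nearest replicate 2 peak was a median of 3540 bp away, 75.7% of the sites had one within 10 kb, and 158 had none within 50 kb. Little of the sequence was repetitive, 6.06% of bases on average against 6.81% in shared peaks, and the median GC content was 52.0% against 51.3%.

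Most sites stood alone, and a minority formed runs in which each lay within 25 kb of the next. There were 3533 sites alone (58.3%) and 1378 in 321 runs of 3 or more (22.7%), with 11 runs of 10 or more. Shared peaks, which are far more numerous and so lie closer together, were alone in 24.3% of cases and in runs of 3 or more in 56.5%. The runs therefore show where the sites gather, and no test was made of whether they gather more than other peaks.

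The longest run, 36 sites over 236 kb (chr8:120329456-120565385), lay wholly in introns of Gse1 and the overlapping gene model Gm20388. Gse1 encodes a subunit of a histone deacetylase co-repressor complex. Its scores ran from 64 to 98 with a median of 72.5. Over the same stretch replicate 1 had 127 peaks and replicate 2 had 52, with scores from 23 to 84, so the locus was open in both libraries. Of the 69 strong distal peaks there, 36 were found only in replicate 1 (52.2%). The stretch was chosen for these sites and begins and ends on them, so this count, like those of the other runs, only describes it. The run of 17 next in length, in introns of Msi2, a Musashi RNA-binding protein gene of neural progenitors, made up 17 of 34 strong distal peaks (chr11:88381276-88489505). The other runs of 13 or more lay in and beside Slit1 (15 of 28), in a non-coding host transcript near the microRNA gene Mir125b-1 (13 of 18, nearest protein-coding gene Ubash3b) and in Tcf20 (13 of 24).

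**Figure D2:**
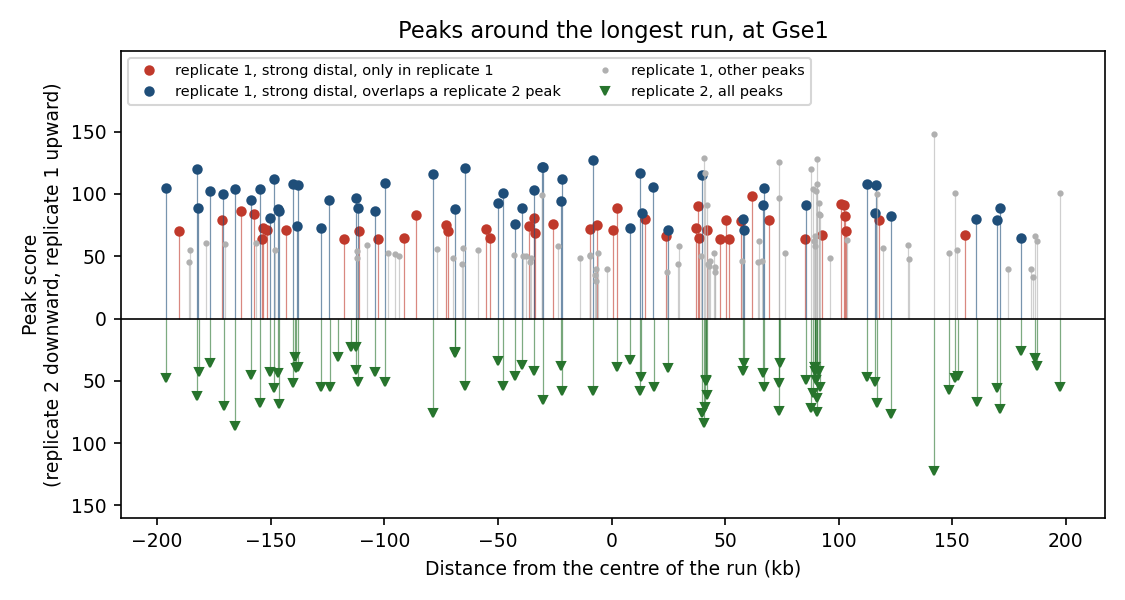
Peaks within 200 kb of the centre of the longest run, by distance (x axis, kb) and score (y axis, replicate 1 upward and replicate 2 downward). The replicate 1-only sites (red) alternate with shared peaks (blue), and replicate 2 has peaks along the whole stretch.

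Shorter runs lay at other loci, and those given here were picked after their values were seen. At Mn1, a transcriptional co-regulator gene, all 10 strong distal peaks over 15.8 kb were found only in replicate 1, where replicate 2 had 1 peak, of score 106. At Pax3 the run held 9 of 12 strong distal peaks, with scores of 64 to 108, and replicate 2 had 10 peaks there against 35 in replicate 1. At Nr2f2, which encodes the nuclear receptor COUP-TFII, it held 9 of 15, and at the imprinted gene Dlk1, a Notch ligand-like gene, 9 of 11. The run of 11 nearest to A230072I06Rik (chr8:12290836-12334345) held 11 of 13, all outside genes.

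The highest-scoring site of each of the 5 longest runs is printed because these runs hold the most sites, with the motifs named above in capitals.
Gse1 run, chr8:120509196-120509345, forward strand: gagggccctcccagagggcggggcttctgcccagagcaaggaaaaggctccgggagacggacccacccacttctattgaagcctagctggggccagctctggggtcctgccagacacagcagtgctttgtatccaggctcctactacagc
Msi2 run, chr11:88489356-88489505, forward strand: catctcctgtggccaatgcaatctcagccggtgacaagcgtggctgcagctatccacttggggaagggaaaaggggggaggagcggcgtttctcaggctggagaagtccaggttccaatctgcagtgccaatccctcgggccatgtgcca
Slit1 run, chr19:41697536-41697685, forward strand: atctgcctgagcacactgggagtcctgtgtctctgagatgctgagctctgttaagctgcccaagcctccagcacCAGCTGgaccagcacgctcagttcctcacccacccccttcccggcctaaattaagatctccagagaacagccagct
Mir125b-1 run, chr9:41595836-41595985, forward strand: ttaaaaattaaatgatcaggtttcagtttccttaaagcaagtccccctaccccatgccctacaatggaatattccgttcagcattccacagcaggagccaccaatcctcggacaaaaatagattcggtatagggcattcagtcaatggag
Tcf20 run, chr15:82963716-82963865, forward strand: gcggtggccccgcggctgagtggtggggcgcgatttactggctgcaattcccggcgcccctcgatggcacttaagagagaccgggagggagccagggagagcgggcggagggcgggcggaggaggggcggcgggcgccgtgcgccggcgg
The Slit1 site, the same one described above, held a CAGCTG E-box, and the other 4 held none of the 7 motifs. The Tcf20 site lay 239 bp from a RefSeq start of Tcf20, although GENCODE put its nearest protein-coding start 51657 bp away.

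The sites were spread over many genes. They were nearest to 2979 protein-coding genes, of 11446 nearest to any strong distal peak. Of these 1723 had 1 site each, and 38 had 10 or more. The 12 genes with the most took 225 sites or 3.71% of the set. Gse1 was nearest to 34 of 64 strong distal peaks, where the genome-wide rate at the same scores gives 7.10. Auts2, a large neurodevelopmental gene linked to autism, had 27 of 112 (13.6 at the rate), and Ccdc182, whose sites mostly lay in Msi2, had 22 of 53 (6.89). The splicing and RNA-binding protein genes Celf4 and Rbfox1 had 19 of 53 (5.63) and 18 of 59 (9.49).

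Transcriptional regulators and guidance genes made up most of the rest. The co-repressor gene Bcor had 17 of 50, the repressor gene Bach2 16 of 39, the Groucho co-repressor gene Tle3 14 of 62 and the transcriptional regulator gene Dach1 14 of 29. Nav2, a neuron navigator gene, had 16 of 50, the ephrin receptor gene Epha4 14 of 35 and Ubash3b 14 of 61. These genes were chosen for their counts, so the counts, and any excess over the rate, are a description. Replicate 2 lacked neither the loci nor, with the exception of Ccdc182, their promoters. The promoter of Dach1 scored 124 and 69, that of Epha4 131 and 74 and that of Bach2 140 and 107 in replicates 1 and 2, and replicate 2 had 26 distal peaks nearest to Dach1 against 117 in replicate 1.

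**Figure D3:**
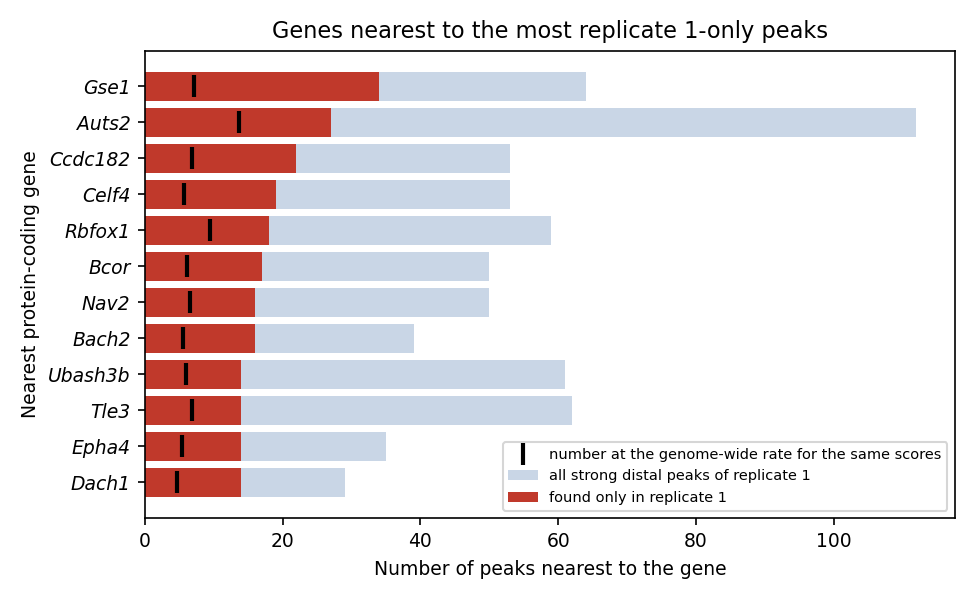
Number of replicate 1 strong distal peaks nearest to each of the 12 genes with the most replicate 1-only sites (x axis): all (light bars) and those found only in replicate 1 (red). Black ticks mark the number that the genome-wide rate at the same scores gives, from 4.72 at Dach1 to 13.6 at Auts2.

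The hindbrain label was first set against promoters. Replicate 1 had a promoter peak at 14 and replicate 2 at 12 of the 15 Hox genes of groups 1 to 5. Both had one at all 16 pan-neuronal genes, while 13 and 10 of 18 forebrain genes had one. Over all 21911 protein-coding genes 69.9% had one in replicate 1 and 65.7% in replicate 2. In Hox groups 6 to 8 and 9 to 13, given below, replicate 2 had far fewer promoter peaks than replicate 1. Marker genes of 26 cell types and regions were then used to read the surroundings of the sites. Within 50 kb of a start of any of the 348 marker genes lay 206 sites (3.40%), against 2.54% of all strong distal peaks. The other 5853 lay farther from all of them, so the lists describe a small part of the set. For each list, the share of its strong distal peaks found only in replicate 1 was compared with the 11.4% of all. It was higher in 12 lists. In 8 the whole interval lay above 11.4%, and these were the 3 Hox lists, the rhombic lip and granule cell lineage, neural progenitors, the midbrain-hindbrain boundary and midbrain, the cerebellar GABAergic lineage, and astrocytes and radial glia. In no list did the interval lie wholly below. No test was made, several lists share genes and peaks, and the lists were written with earlier results of these data known.

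Around the Hox genes, which set position along the body axis, 25 of 62 strong distal peaks were found only in replicate 1 (40.3%, 29.0% to 52.7%), where the rate at the same scores gives 6.52. All 4 clusters contributed. The HoxA cluster had 6 of 17, the HoxB cluster 7 of 18, the HoxC cluster 6 of 11 and the HoxD cluster 6 of 16. The strongest site lay in an intron of Hoxb4, 1044 bp past its start (score 102), with others 4040 bp from Hoxa2 (score 93) and 1316 bp from Hoxd3 (score 86). The lists of groups 1 to 5, 6 to 8 and 9 to 13 gave nearly the same shares, 42.9%, 43.8% and 41.7%, because genes of a cluster lie within 50 kb of one another and count the same peaks. When each peak counted only for its nearest gene, groups 9 to 13 kept 4 strong distal peaks and 0 of the sites. With peaks near RefSeq starts left out, 19 of 50 remained. Promoters differed alongside: replicate 1 had a promoter peak at 29 of the 39 Hox genes and replicate 2 at 14, while over all 21911 protein-coding genes the shares were 69.9% and 65.7%. By group, replicates 1 and 2 had one at 14 and 12 of the 15 genes of groups 1 to 5. For groups 6 to 8 the numbers were 6 and 0 of 8, and for groups 9 to 13 they were 9 and 2 of 16.

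Among hindbrain lineages, genes of progenitors and of dorsal and cerebellar fates had the larger shares. Near neural progenitor genes 34 of 135 strong distal peaks were found only in replicate 1 (25.2%, 18.6% to 33.1%), with 9 of 12 at Pax3, 4 of 12 at Sox2 and 4 of 7 at Sox1. In the rhombic lip and granule cell list, which covers the source of the cerebellar granule neurons, it was 29 of 99 (29.3%, 21.2% to 38.9%). Pax6 had 9 of 12 with a top score of 99, and Neurod2 5 of 18. The neighbours Zic4 and Zic1 had 8 of 16 and 7 of 15 and share their leading site, of score 97. Other genes of this list had few or none, such as Meis1 (1 of 11), Atoh1 (0 of 6), Pde1c (0 of 5), and Barhl1 and Neurod1 (0 of 4 each). The cerebellar GABAergic list had 23 of 115 (20%, 13.7% to 28.2%), with 6 of 14 at Lhx5 and 4 of 15 at Slc32a1. The boundary and midbrain list had 13 of 63 (20.6%), led by Gbx2 with 5 of 13 and by Lmx1b with 3 of 8. Radial glial and astrocyte genes had 19 of 107 (17.8%), led by Sox9 with 6 of 11 and Nfib with 5 of 19. The sites at Sox9 are counted in the cartilage and bone list too. Several other genes of this list had none, among them Fgfr3 (0 of 10), Aldh1l1 (0 of 8), Gfap (0 of 6) and Slc1a3 (0 of 5). In these 5 lists the rate at the same scores gives between 10.1% (progenitors) and 13.5% (rhombic lip). Each of the 5 shares rested on part of the list's genes. A site lay within 50 kb of 12 of 19 progenitor genes, 9 of 16 rhombic lip genes and 9 of 15 GABAergic genes. The boundary and midbrain list had 5 of 14 such genes, and the radial glial and astrocyte list 7 of 14.

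In the other lists of neural cells and brain regions every interval included 11.4%. Pan-neuronal genes had 9 of 100 (9.00%, 4.81% to 16.2%), of which 4 lay near Rbfox3, and brainstem neuron genes had 14 of 95 (14.7%, 8.99% to 23.2%), led by Lbx1 and Lmx1b with 3 each. The rate at the same scores gives 8.68 and 11.1 sites. Forebrain genes had 4 of 47, 2 near Tbr1 and 2 near Fezf2, where that rate gives 5.68. The oligodendrocyte lineage had 6 of 58, with 2 near Mbp and 2 near Cspg4, and choroid plexus and roof plate 4 of 43, with 2 near Msx1, where it gives 5.73 and 4.52. The order of these lists depended on how peaks were given to genes. When each peak counted only for its nearest protein-coding gene, the pan-neuronal share was 16.5% of 188 peaks, close to the 18.9% of 185 for the rhombic lip list and the 19% of 200 for progenitors, and the forebrain share was 13.3% of 83 and the choroid plexus share 16.4% of 61.

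Lists of blood, vessel and other non-neural cells, and of sensory cells, held few strong distal peaks within 50 kb, and at that distance every interval included 11.4%. Endothelial genes had 2 of 47 (4.26%, 1.17% to 14.2%), near Erg and Fli1, where the rate at the same scores gives 5.10 sites. Microglia and leukocyte genes had 3 of 47, all near C1qb (6.34 at the rate). Liver genes had 1 of 34, near Fgb (3.23), and pituitary genes 1 of 34, near Lhx4 (3.63). These 4 lists lay the farthest below the rate. The lists closest to the rate were meninges and mesenchyme with 3 of 44 (3.75), erythroid cells with 3 of 38 (3.81), germ line with 2 of 27 (1.98), epidermis with 3 of 26 (3.10) and skeletal muscle with 4 of 46 (4.78). Neural crest had 4 of 52 (5.15) and pericytes and smooth muscle 5 of 45 (3.04). Cartilage and bone had 9 of 47 (5.15), 6 of them near Sox9, and sensory ganglia and ear 11 of 69 (8.95), 3 of them near Pax2, which the GABAergic list holds too. Here too the way peaks were given to genes mattered. When each peak counted only for its nearest protein-coding gene, the sensory ganglia and ear share was 19.1% of 94 peaks. Epidermis then had 15.4% of 26 and cartilage and bone 12.7% of 110, and the other lists of this paragraph stayed below 11.4%. Promoter peaks were fewer in replicate 2 for most lists, neural ones included. Examples were brainstem neuron genes (21 and 13 of 25), endothelial genes (12 and 7 of 16) and microglial genes (7 and 4 of 15). They were equal in number for pan-neuronal (16 of 16 in each), neural crest (11 of 13 in each) and germ line genes (2 of 10 in each). What these values mean for the cell makeup of the samples was not tested.

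**Figure D4:**
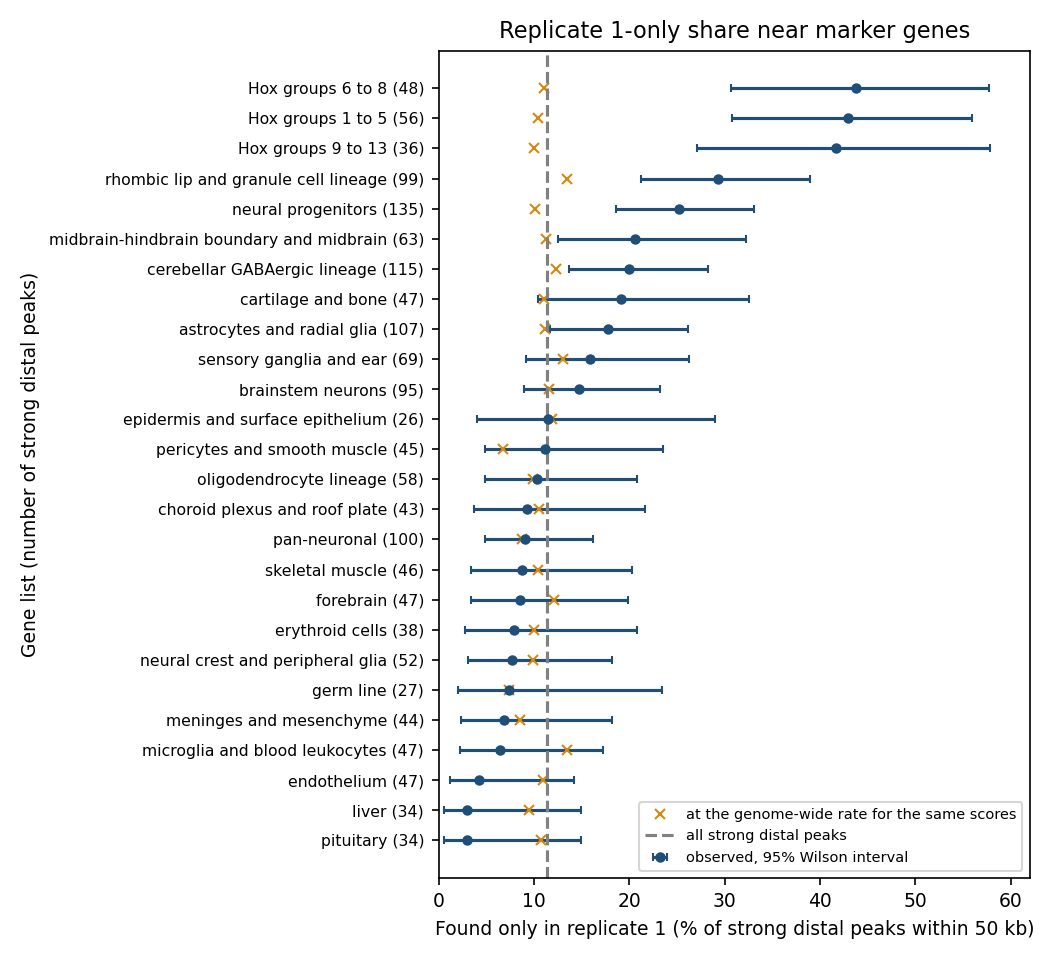
Share of strong distal peaks within 50 kb of each list's genes that were found only in replicate 1 (x axis, percent), with 95% Wilson intervals, the share given by the rate at the same scores (crosses) and the 11.4% of all (dashed line). The Hox lists stand at 41.7% to 43.8% and the liver and pituitary lists at 2.94%.

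The sequences of the sites were searched on both strands for 36 consensus motifs, several of which can overlap. CTCF differed most. Its consensus was in 21 of 6059 sites (0.347%, 0.227% to 0.529%), in 9.12% of shared peaks and in 2.86% of all distal peaks of replicate 1. Within scores of 64 to 70 the shares were 0.344% and 5.72%. Put the other way, 21 of the 4188 strong distal peaks with a CTCF consensus were found only in replicate 1 (0.501%), against the background of 11.4%.

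Homeodomain and POU consensus sequences were more frequent than in shared peaks. The homeodomain core TAATTA was in 586 sites (9.67%, 8.95% to 10.4%), in 6.25% of shared peaks and in 7.97% of all distal peaks. At scores of 64 to 70 it was in 10.1% of sites and 7.45% of shared peaks. The octamer ATGCNAAT of POU factors was in 4.51% against 3.35%, and TGATTNAT, bound by HOX and PBX proteins together, in 4.04% against 2.89%. At scores of 64 to 70 the ratio of the shares fell to 1.19 for the octamer and 1.13 for TGATTNAT, and all distal peaks held TGATTNAT nearly as often (3.96%). Some other motifs had higher ratios than the octamer in that score range. Among them were 1.29 for the LEF/TCF sequence ATCAAAG, 1.25 for the TFAP2 sequence GCCNNNGGC and 1.22 for the SP and KLF sequence GGGCGGGG. Over all scores the ratios of these 3 were 1.17, 1.06 and 0.792. At scores of 64 to 70 the E-boxes CATATG (1.3) and CAGCTG (1.21) and the RFX consensus (1.23) were above the octamer too.

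E-boxes, the sites of bHLH factors, differed by their central bases. CAGCTG was in 21.1% of the sites (20.1% to 22.2%) against 17.7% of shared peaks, CAGATG in 20.9% against 17.9% and CATATG in 3.30% against 2.65%. CACCTG went the other way, with 8.91% against 10.5%. All distal peaks of replicate 1 held CAGCTG in 16.3%, CAGATG in 18.2%, CATATG in 3.34% and CACCTG in 9.5% of cases. CATATG was thus no more frequent in the sites than in all distal peaks. At least 1 of the homeodomain core, the octamer, the HOX-PBX sequence, CAGCTG and CAGATG was in 48.8% of the sites and 40.3% of shared peaks. Sites with TAATTA held CAGCTG or CAGATG in 32.1% of cases and sites without it in 38.4%.

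Motifs of blood, vessel and mesenchymal regulators were close to the shared peaks. The sequence AGATAA, bound by the erythroid and endothelial GATA factors, was in 5.26% against 5.13%. The ETS factor sequence AGGAAGT was in 2.94% against 3.04%, and the longer form GAGGAAGT of PU.1, a regulator of microglia and other myeloid cells, in 0.809% against 0.791%. The RUNX sequence TGTGGT was in 9.21% against 9.78% and the TEAD sequence ACATTCC in 2.20% against 2.15%. AP-1 (TGANTCA) was in 5.58% against 4.57%, but in 5.66% of all distal peaks, and its ratio at scores of 64 to 70 was 0.971. SOX (ACAATG) was in 8.50% against 8.47% and ZIC (CAGCAGG) in 11.1% against 10.9%. The RFX consensus was in 0.611% against 0.994%, but its ratio at scores of 64 to 70 was 1.23.

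Motif content was also compared within the set. TAATTA was in 8.13% of the 1378 sites in runs of 3 or more, in 10.1% of those standing alone and in 8.65% of the 694 with scores of 80 or more. CAGCTG was in 19.8%, 21% and 24.1%, and TGATTNAT in 3.41%, 4.13% and 2.59%. Rarer motifs differed more in proportion, such as the GC-rich sequence of SP and KLF factors with 2.98%, 1.42% and 2.45%, and the TEAD sequence with 1.38%, 2.38% and 1.44%. In the 150 bp windows 40.0% of TAATTA matches and 41.9% of CAGCTG matches lay within 25 bp of the centre, where even placement gives 35.2%, and 13 of the 21 CTCF matches did. In shared peaks the central shares were 37.5%, 38.6% and, for CTCF, 64.3%. CAGATG and octamer matches were less often central in the sites (37.3% and 36%) than in shared peaks (40.3% and 39.3%). Even placement gives 35.2% for CAGATG and 35.7% for the octamer.

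**Figure D5:**
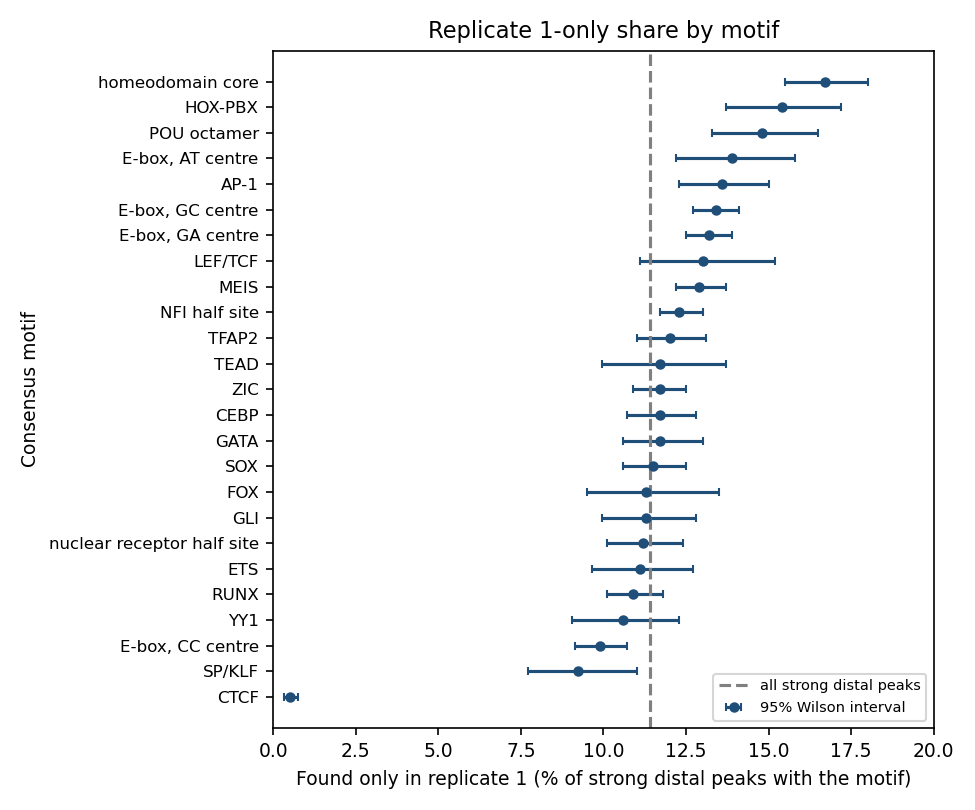
Share of the strong distal peaks holding each consensus that were found only in replicate 1 (x axis, percent), with 95% Wilson intervals, for CTCF and motifs in 100 or more sites; the dashed line is the 11.4% of all. CTCF stands at 0.501% and the homeodomain core at 16.7%.

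For the 5 motifs in at least 2% of the sites with the largest ratio to shared peaks, the highest-scoring site with a match is shown, to let the match be seen in its setting.
TAATTA, Dnaic1 site, chr4:41631516-41631665, forward strand: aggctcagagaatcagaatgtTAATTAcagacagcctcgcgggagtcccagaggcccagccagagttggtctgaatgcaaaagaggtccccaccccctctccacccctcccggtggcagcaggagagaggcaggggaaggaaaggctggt
TGATTNAT, Gm33831 site, chr8:34380756-34380905, forward strand: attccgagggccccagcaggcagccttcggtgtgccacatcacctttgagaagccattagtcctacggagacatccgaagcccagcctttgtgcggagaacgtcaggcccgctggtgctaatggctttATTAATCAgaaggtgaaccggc
ATGCNAAT, Asic4 site, chr1:75458576-75458725, forward strand: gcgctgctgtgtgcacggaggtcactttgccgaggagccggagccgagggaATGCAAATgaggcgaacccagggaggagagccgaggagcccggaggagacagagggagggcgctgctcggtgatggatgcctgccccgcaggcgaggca
CATATG, Rhbg site, chr3:88241176-88241325, forward strand: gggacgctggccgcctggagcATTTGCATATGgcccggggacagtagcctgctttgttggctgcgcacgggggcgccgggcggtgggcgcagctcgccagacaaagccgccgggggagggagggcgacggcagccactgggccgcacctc
TGANTCA, Msx2 site, chr13:53454876-53455025, forward strand: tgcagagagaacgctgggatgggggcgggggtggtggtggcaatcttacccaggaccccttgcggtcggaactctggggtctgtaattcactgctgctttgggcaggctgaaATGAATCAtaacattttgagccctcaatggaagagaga
In the Rhbg site an octamer and a CATATG E-box overlapped, and in the Msx2 site, 18123 bp from the start of this homeobox gene, the AP-1 match lay inside a TGATTNAT match. The Gm33831 site (score 102) lay in an exon of that long non-coding RNA. A match is a sequence and not a measured binding site.

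The sites found in the exchanged direction were few and had low scores. The 18 scored from 41 to 56 in replicate 2, with a median of 45.5. The strongest lay 10835 bp from Ebf3 (chr7:137303076-137303225), and 3 of the 18 were nearest to this gene of early neurons. Ebf3 was also nearest to replicate 1-only sites with scores of up to 101, and Zeb2 and Meis2 were nearest to sites of both kinds. None lay within 50 kb of a Hox gene, and with so few no share was compared.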

How the data were processed

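The authors deposited 1 peak list and 1 hotspot list per replicate, and both were used unaltered. The text deposited with the samples ties them to mm10 and to that replicate's own filtered reads. The sources used here do not give the aligner, the caller or the cut-offs. The score deposited with each peak is a whole number of at most 150; its meaning and any scaling for depth are not stated. The −log10 q-value the authors deposited for each hotspot runs from 1.3 to 6 or stands at 100, read here as a cap. Depth is unknown. Peaks off the assembled chromosomes (253 and 303) were left out.

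TSSs, gene classes and nearest protein-coding genes came from the basic set of GENCODE M21, sequence and further TSSs from RefSeq's GRCm38.p6, whose chromosome lengths held every peak. No statistical test was run, since the replicate contrast chose the sites: shares have 95% Wilson intervals (scipy 1.17.1) and are set beside the same share over all strong distal peaks. The overlap, motif and run functions were tested on simulated data. The members, the 26 lists (3 names not found) and the 36 motifs were chosen with earlier results of these data known. Named were the nearest genes of the 10 highest-scoring sites, the 12 genes nearest to most sites, the genes of the 5 longest runs, up to 2 genes per list with most sites within 50 kb, and list genes with their values; Mn1, Nr2f2, Dlk1, A230072I06Rik and the genes of the exchanged direction were named after their values were seen. By label the samples are biological replicates 1 and 2, with the same donor entry. Alternatives are in the closing section.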

Additional observations from a re-analysis of the deposited data

How the results depend on the processing

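No paired analysis was possible because there is 1 group and the sites are defined by the difference between its replicates. The count of sites depends on the score minimum: 14129 with 56 and 694 with 80, while stricter or looser rules on replicate 2 overlap, a 2500 bp TSS distance and RefSeq starts gave 4798 to 7286. Without replicate 2 the rule leaves all 52949 strong distal peaks, of which 51.5% were intronic, 62.7% in runs of 3 or more, 7.91% held CTCF, 6.63% held TAATTA and 2.54% lay near a list gene; without replicate 1 no site is left. At a score minimum of 80, 62% of the sites were intronic, 14.1% lay in runs, 8.65% held TAATTA and 7.64% lay within 50 kb of a list gene. The share in runs was 11% when joined at 10 kb, 46% at 100 kb, 18.8% when a replicate 2 peak or hotspot within 500 bp also removed a site, and 21% without sites near RefSeq starts. A 300 bp window held TAATTA in 15.7%. Near list genes lay 5.02% of sites within 100 kb and 4.65% by nearest gene. The exchanged direction gave 0 sites at a replicate 2 score of 64 and 436 when hotspots were ignored. The share of CTCF stayed between 0.288% and 0.429% in all alternatives that kept replicate 2. For the 26 lists and all Hox genes together, 27 of 27 shares stayed within their intervals at 100 kb and without RefSeq starts; a score minimum of 80 moved 24 and scores of 64 to 70 alone moved 20, since both change the background too. Counting by nearest gene moved 5, among them Hox groups 9 to 13, from 41.7% to 0 of 4 peaks. RefSeq starts, the score range and the rate at the same scores were chosen after seeing the data.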
